A study of Drosophila melanogaster with 3 samples.

Results

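The 10 genes described here encode the core of the Decapentaplegic (Dpp) pathway of Drosophila melanogaster, the fly branch of bone morphogenetic protein (BMP) signalling, and the data are binding sites of the transcription factor Mirror at their loci. The members were listed by function: the ligand gene dpp, the extracellular modulators sog and cv-2, the receptors tkv, sax and put, the Smad Mad, the inhibitory Smad Dad, the repressor brk and the cofactor shn. They are 10 of 13945 protein-coding genes. The rule that lists them uses no measured value, but the list was chosen with earlier results of these data known. Mirror is an Iroquois homeodomain protein, and it was mapped by ChIP-seq in whole mixed-sex embryos aged 4 to 20 h from a stable transgenic line (mirr-GFP) in which GFP was fused to the C-terminus of mirr. The 1 group held 3 biological replicates, with no untagged or untreated embryos and therefore no comparison between groups and no test. The labels do not say which promoter drives the fusion, and whole pooled embryos do not show in which cells, or at which hour of the window, a site was occupied.

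Dpp is secreted and binds complexes of type I receptors (Tkv, Sax) and the type II receptor Put, which phosphorylate Mad. Phosphorylated Mad enters the nucleus with the co-Smad Medea and, with the zinc-finger protein Shn, represses brk, whose product otherwise represses Dpp target genes. Dad is a target of the pathway that inhibits it, Sog binds Dpp outside the cell, and Cv-2 binds BMPs at the cell surface. In the embryo the pathway patterns the dorsal ectoderm and later acts at the leading edge of the epidermis and in the mesoderm.

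A locus was the gene body plus 5 kb on each side. Binding was read from 2 kinds of deposited list: the 6201 peaks kept by an irreproducible discovery rate (IDR) procedure, and a relaxed list of 30000 regions for each replicate. The 6201 regions of highest deposited signal in a replicate are called its strongest regions, and rank 1 is the strongest region of a list. Sequencing depth is unknown and the scale of the signal is not stated, so regions were compared by rank within a list. The windows below show the letters under the strongest IDR peak of tkv, Dad and Mad and under both IDR peaks of brk, the receptor, inhibitor, Smad and repressor genes to which the values below return. Each window is 201 bases of the release 6 (dm6) reference, plus strand, 5′ to 3′, centred on the summit, and none overlaps an annotated UTR. Capitals mark matches on either strand to the Iroquois sequence ACANNTGT, the GATA factor sequence GATAAG, the Brinker sequences (GGCG followed by 2 pyrimidines), or the GAGA sequence GAGAG.
tkv, intron, chr2L:5233548-5233748: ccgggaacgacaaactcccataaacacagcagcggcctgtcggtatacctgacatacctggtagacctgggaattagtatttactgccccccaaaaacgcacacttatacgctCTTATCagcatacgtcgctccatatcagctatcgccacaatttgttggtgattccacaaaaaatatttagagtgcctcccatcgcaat
Dad, intron, chr3R:17056360-17056560: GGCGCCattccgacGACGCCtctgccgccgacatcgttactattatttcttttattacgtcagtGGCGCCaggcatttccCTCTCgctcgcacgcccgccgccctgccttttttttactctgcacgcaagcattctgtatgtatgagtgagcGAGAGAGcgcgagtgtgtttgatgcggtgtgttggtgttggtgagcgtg
Mad, intron, chr2L:3153319-3153519: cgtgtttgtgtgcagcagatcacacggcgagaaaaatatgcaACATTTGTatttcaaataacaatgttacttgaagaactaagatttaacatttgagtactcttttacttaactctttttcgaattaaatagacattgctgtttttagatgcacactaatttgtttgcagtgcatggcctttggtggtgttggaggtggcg
brk, upstream of the TSS, chrX:7307604-7307804: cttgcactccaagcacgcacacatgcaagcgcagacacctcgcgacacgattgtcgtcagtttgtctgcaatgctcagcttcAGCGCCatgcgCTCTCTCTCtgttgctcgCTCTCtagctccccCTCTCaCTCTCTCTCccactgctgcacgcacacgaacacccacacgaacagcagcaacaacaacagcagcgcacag
brk, farther upstream, chrX:7306763-7306963: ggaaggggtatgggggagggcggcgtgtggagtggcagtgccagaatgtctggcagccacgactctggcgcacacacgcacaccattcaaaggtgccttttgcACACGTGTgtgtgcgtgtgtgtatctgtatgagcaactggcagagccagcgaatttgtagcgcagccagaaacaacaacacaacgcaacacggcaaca
The tkv window holds 1 match, a GATA factor sequence that starts 13 bp to the right of the summit. The Dad window holds 3 Brinker sequences and runs of the GAGA sequence. The Mad window and the farther brk window each hold 1 Iroquois sequence, which in brk starts 3 bp from the summit. The nearer brk window holds 1 Brinker sequence beside GAGA runs. Brinker and GAGA letters were also common in all IDR windows, as given below. The printed windows do not stand for all IDR peaks of the loci: the strongest sog peak, not printed, held no match, and no shn window is printed.

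IDR summits lay in 8 of the 10 loci, against 52.1% of all protein-coding genes, and the 41 summits were very unevenly spread. The shn locus held 19 and the Dad locus 9, which together make 28 of 41 (68.3%). The tkv, sax and sog loci held 3 each, brk 2, and Mad and cv-2 held 1 each. The dpp and put loci held 0. Since longer loci can hold more summits, and the median locus measured 30.4 kb for the members against 12.2 kb for all genes, counts were also set per length. The 10 loci carried 1.21 summits per 10 kb, against 0.46 over the chromosome arms and 0.68 over all gene loci. Without shn and Dad, the other 8 loci held 13 summits, or 0.53 per 10 kb.

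Replicates 1, 2 and 3 placed 40, 43 and 40 summits of their strongest regions in the loci, which is 1.21 ± 0.0509 per 10 kb (SD, n = 3), so the total varied little between replicates. At least 1 such summit was found in 9, 7 and 9 members in replicates 1, 2 and 3, where the shares of all genes were 54.8%, 49.0% and 50.4%. The replicates share 1 control alignment, so background of that control is common to all of them.

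**Figure D1:**
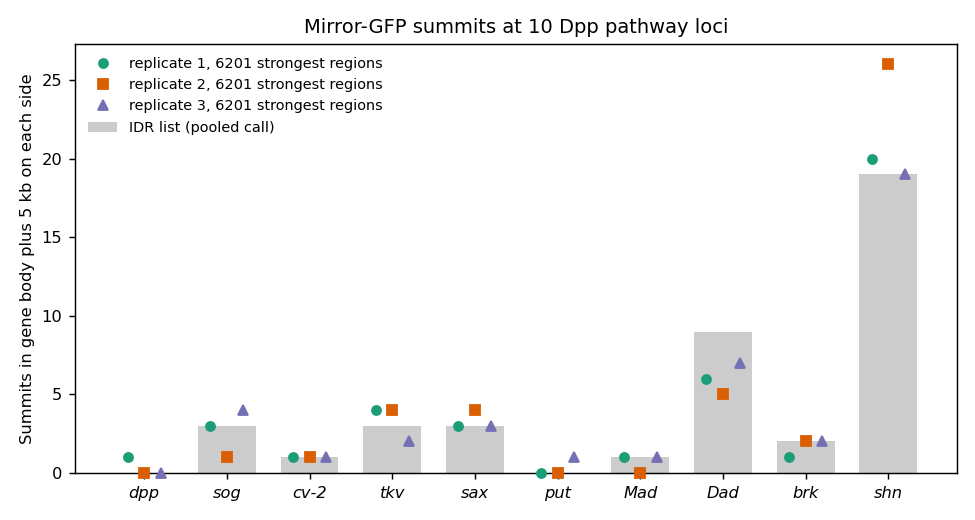
Number of summits in each locus (gene body plus 5 kb on each side), for the IDR list (grey bars) and for the 6201 strongest regions of replicates 1, 2 and 3 (symbols). The shn locus stands above all others in each replicate with 20, 26 and 19 summits, Dad comes next with 6, 5 and 7, and every other locus has at most 4.

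Within 1000 bp of a transcription start site (TSS) of the gene, 8 of 10 members had an IDR summit, against 25.1% of all genes. The same count in the strongest regions was 8 in replicate 1, 5 in replicate 2 and 7 in replicate 3, where the shares of all genes were 28.1%, 22.4% and 22.6%. Only 4 members, cv-2, sax, brk and shn, had such a summit in all 3 replicates, a state reached by 14.8% of all genes. At sax the IDR summit lay 683 bp from the sax TSS but 235 bp from that of Nop17l. At Dad it was the weakest IDR peak of all the loci. Members with several TSSs also have more windows in which a summit can fall. Of the 24 annotated TSSs of the members, 8 (33.3%) had an IDR summit within 500 bp, against 20.6% of the 19607 TSSs of all genes.

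The ligand gene dpp (FBgn0000490; 2L, 2428372 to 2459823, plus strand), which encodes the secreted ligand, held no IDR summit. Its strongest region was at rank 5663 in replicate 1, at rank 7723 in replicate 2 and at rank 7490 in replicate 3. The regions of replicates 1 and 2 lay 208 and 30 bp from the same TSS, 22.9 kb into the gene, and that of replicate 3 lay in an intron 2045 bp from the first TSS. Only the region of replicate 1 was among its strongest, and the strongest region of the pooled call, with a signal of 169.0 at rank 7300, was below the lowest IDR signal of 190.7. Outside the IDR list, 4 regions of dpp recurred in all 3 replicates with summits within 200 bp, and 2 of them lay 18 and 119 bp from a dpp TSS. The nearest IDR peak was 13092 bp beyond the 3′ end of dpp, in intergenic sequence with its summit at 2L position 2472915. That peak had rank 1603 in the IDR list and ranks 2446, 1858 and 1330 in replicates 1, 2 and 3, and dpp held the nearest TSS, 18178 bp away. It fell 8092 bp outside the dpp locus as defined here, so it is not counted among the 41.

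Among the extracellular modulators, sog (FBgn0003463; X, 15603283 to 15633434, minus strand), the fly Chordin, held 3 IDR summits, and cv-2 held 1. The strongest sog peak, with a signal of 296.4 at rank 3063, lay in intergenic sequence 645 bp beyond the 3′ end of the gene. In the replicates that region had ranks 6310, 7266 and 1469, so replicate 3 alone had it among its strongest. The second sog peak lay 109 bp from the downstream TSS of sog, at ranks 2999, 8260 and 3931 in replicates 1, 2 and 3. The third lay in an intron, 3492 bp from that TSS, at ranks 3696, 10139 and 3959. None of the 3 was among the strongest regions of replicate 2, whose only sog region of that strength was an intronic one at rank 5282 that is not in the IDR list. The IDR summit nearest to the first sog TSS was that of the second sog peak, 7003 bp away. Crossveinless 2, encoded by cv-2 (FBgn0000395; arm 2R, 21355015 to 21379464, minus strand), had its single peak 28 bp upstream of its only TSS, with a signal of 336.4 at rank 2458. This promoter region had ranks 3466, 1408 and 3667 in replicates 1, 2 and 3 and was thus among the strongest of each. Each of these 2 genes also held 10 regions outside the IDR list that recurred in all 3 replicates.

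Of the receptor genes, tkv and sax had 3 IDR summits each and put had 0. The type I receptor gene tkv (FBgn0003716; 2L, 5219000 to 5271384, minus strand) carried all of its summits downstream of its first 3 TSSs. The strongest, whose letters are printed above, was an intronic peak 3714 bp downstream of the last TSS with a signal of 580.6 at rank 737. It had ranks 1541, 553 and 605 in replicates 1, 2 and 3, which made it the strongest tkv region of every replicate. A second intronic peak, 8438 bp downstream of that TSS, had ranks 4662, 4415 and 3167. The last TSS itself, 34.0 kb into the gene, had a peak 11 bp away at IDR rank 5288 and replicate ranks 5577, 3520 and 7494. That promoter peak was therefore outside the strongest regions of replicate 3, and the other 3 TSSs had no IDR summit within 5 kb.

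The other type I receptor gene, sax (FBgn0003317; arm 2R, 7806484 to 7810067, plus strand), had 3 summits in its flanks and 0 in its body, and each was nearest to another gene. One lay 683 bp upstream of the first sax TSS and 235 bp from the TSS of Nop17l, at ranks 2920, 1469 and 2249 in replicates 1, 2 and 3. Another lay 83 bp from the TSS of puml at ranks 1437, 691 and 2744, and the last lay in the 3′ UTR of puml at ranks 1839, 151 and 1247. All 3 were among the strongest regions of every replicate, but they cannot be ascribed to sax from position alone. At the first sax TSS itself, replicate 2 had a summit 4 bp away at rank 3130, while the region there had ranks 25060 and 8825 in replicates 1 and 3.

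The type II receptor gene put (FBgn0003169; 3R, 14619030 to 14625703, minus strand) had few regions of any strength. Its locus of 16.7 kb held 2, 1 and 4 regions of the relaxed lists of replicates 1, 2 and 3. The locus of dpp, the other one without an IDR summit, held 20, 7 and 16 but is longer, at 41.5 kb. The strongest put region was at rank 13145 in replicate 1, at rank 9215 in replicate 2 and at rank 5451 in replicate 3, and all of them lay within 500 bp of the put TSS. In replicate 2 the summit lay 4 bp from the TSS of His4r, whose start is beside that of put. No region of put outside the IDR list recurred in all 3 replicates, and the nearest IDR summit lay 9976 bp beyond the gene.

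**Figure D2:**
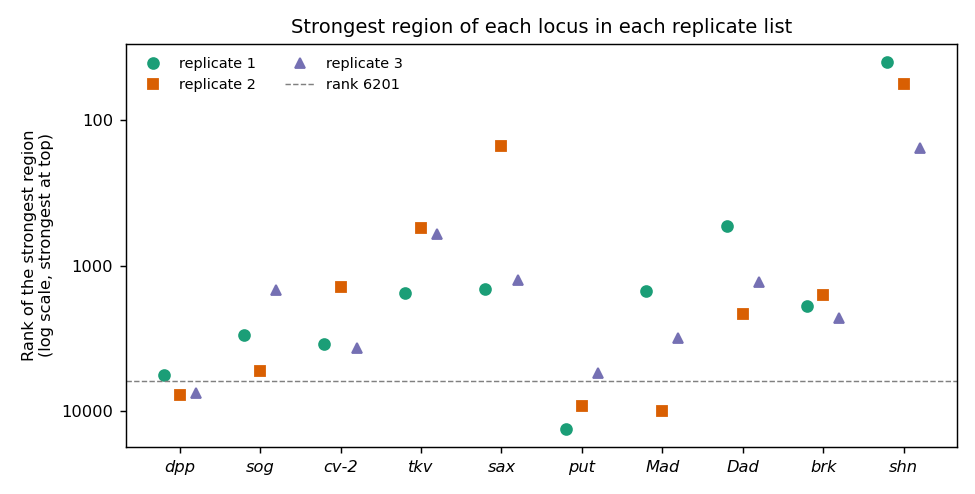
Rank of the strongest region of each locus in each replicate list, on a log axis with the strongest at the top; the dashed line is rank 6201. The shn locus reaches ranks 40, 56 and 156, the dpp symbols lie close to the line at 5663 to 7723, and put reaches the strongest regions in replicate 3 alone.

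The Smad gene Mad (FBgn0011648; 2L, 3146056 to 3159643, minus strand), whose product carries the signal from the receptors to the nucleus, had 1 IDR summit. It lay in an intron 666 bp upstream of the second Mad TSS, with a signal of 325.1 at rank 2624. Replicates 1 and 3 had this region at ranks 1483 and 3123, but replicate 2 had it at rank 9894, outside its strongest regions. The first Mad TSS had no IDR summit within 5 kb, and the nearest one lay 5645 bp upstream of it.

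The inhibitory Smad gene Dad (FBgn0020493; 3R, 17054007 to 17070408, plus strand) held 9 IDR summits in 26.4 kb, or 3.41 per 10 kb, the highest density of the 10 loci in the IDR list. As many or more summits were found at 73 of 13945 genes (0.523%), and an equal or higher density at 321 (2.30%). Both counts include Dad itself. Of the 9 summits, 8 lay in the gene body between its first TSS and 14.0 kb, and 7 of these were intronic. The strongest, at 2.5 kb with a signal of 409.1 and IDR rank 1673, had ranks 531, 2940 and 3364 in replicates 1, 2 and 3. A peak at 11.5 kb had ranks 4914, 2141 and 1291, and a peak at 14.0 kb had ranks 2621, 2859 and 3631. The peaks at 2.5 and 2.7 kb were overlapped by the same region in each replicate, and those at 11.5 and 11.7 kb by the same region in replicates 2 and 3, so neighbouring summits were not always resolved. The peak at the Dad promoter, 38 bp from the first TSS, was the weakest of all 41 at rank 6005; it was met by a region at rank 6813 in replicate 1 and by none in replicates 2 and 3. The last summit, in the 3′ flank, lay 10 bp from the TSS of mRpS11, which encodes a mitochondrial ribosomal protein.

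The repressor gene brk (FBgn0024250; X, 7307939 to 7311132, plus strand) held 2 IDR summits, both upstream of its only TSS. The nearer, 235 bp upstream, had a signal of 337.8 at rank 2437 and replicate ranks 1893, 1585 and 4367. The farther, 1076 bp upstream, had ranks 7667, 2376 and 2274, so it was outside the strongest regions of replicate 1. Both lie inside CG1677 as annotated, although brk has the nearest TSS, and the gene body of brk held no summit. A further IDR peak, 7293 bp upstream of brk at IDR rank 4271, also had its nearest TSS at brk. It lay 2293 bp outside the locus and is not counted. Its ranks were 6089, 7888 and 3003 in replicates 1, 2 and 3, so it was outside the strongest regions of replicate 2.

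**Figure D3:**
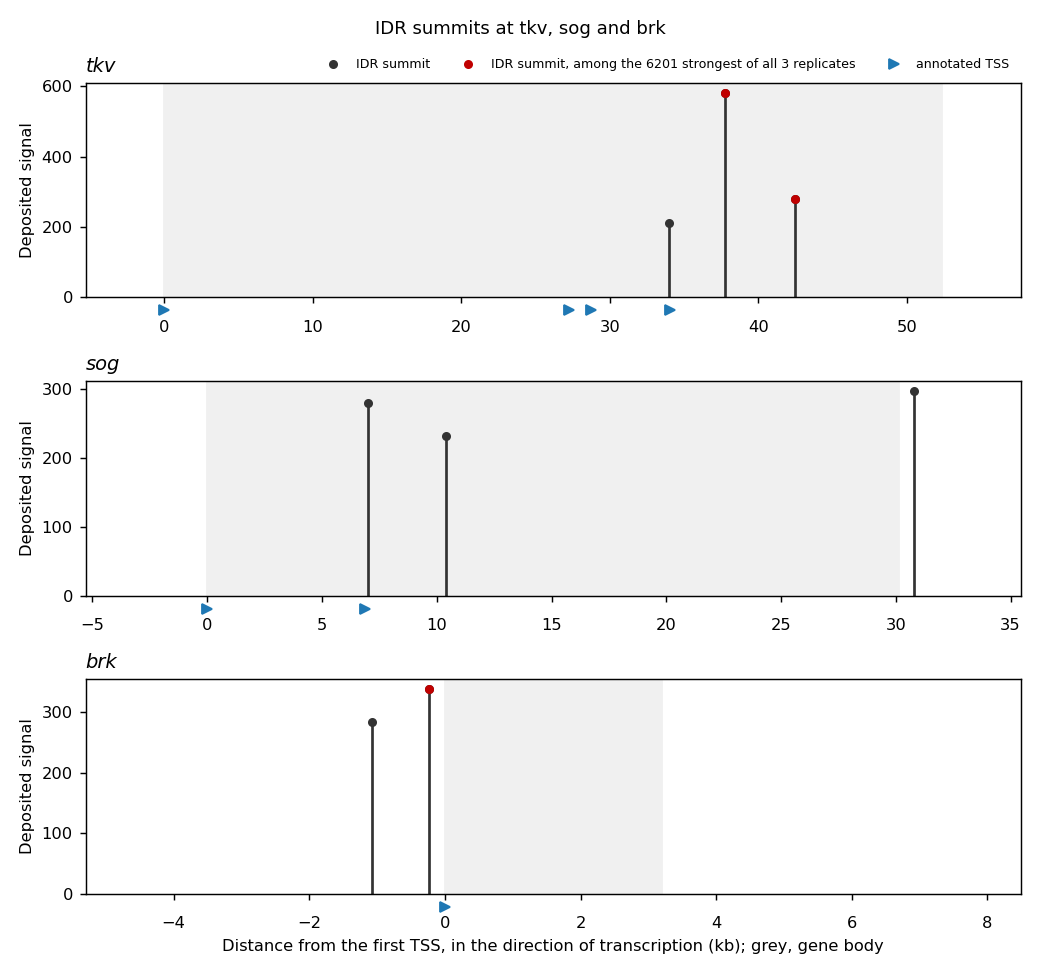
Deposited signal of the IDR summits (lines with points) at tkv, sog and brk against the distance from the first TSS in kb; grey marks the gene body, arrowheads the annotated TSSs, and red points summits among the 6201 strongest regions of all 3 replicates. The tkv summits lie at 34.0 to 42.5 kb, at and beyond the last TSS; sog has no red point, and the brk summits lie 0.2 and 1.1 kb upstream of the TSS.

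The cofactor gene shn (FBgn0003396; arm 2R, 11159086 to 11217394, plus strand) encodes a large zinc-finger protein that acts with Mad and Medea, and it was the locus with the most and the strongest summits. At least 19 IDR summits were found at 4 of 13945 genes (0.0287%), and a density of at least 2.78 per 10 kb at 614 (4.40%). Both counts include shn itself. The strongest regions of replicates 1, 2 and 3 placed 20, 26 and 19 summits there, or 21.7 ± 3.79 (SD, n = 3). The first 14.5 kb of the gene held no IDR summit, and neither did the first TSS, although the gene body as a whole held 18. These 18 lay over 33.9 kb, from 14.5 to 48.4 kb, with a median gap of 1415 bp and gaps of 269 to 8353 bp. That is 5.32 summits per 10 kb, and 5.75 for the gene body summits of Dad by the same measure. The summits themselves set the ends of this span, so these values are raised by construction and cannot be set beside the locus densities.

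The strongest shn peak lay 180 bp upstream of the second TSS, with a signal of 1264.7 at IDR rank 81. It had ranks 40, 56 and 715 in replicates 1, 2 and 3. The intronic peak at 31.9 kb had ranks 234, 145 and 156, the one at 37.0 kb had ranks 271, 76 and 239, and the one at 43.7 kb had ranks 351, 112 and 311. These 3 peaks ranked below the promoter peak in replicates 1 and 2 and above it in replicate 3. Of the 5 annotated TSSs of shn, those at 14.7, 39.2 and 45.5 kb had an IDR summit within 180, 77 and 6 bp. In all, 14 of the 19 summits were intronic, 16 were among the strongest regions of all 3 replicates, and the other 3 among those of 2. The peaks at 48.1 and 48.4 kb were overlapped by the same region in each replicate, at ranks 2912, 1478 and 4943, and are counted separately. One summit in the 3′ flank lay 277 bp from the TSS of CG9084, with ranks 5691, 921 and 13232. A further strong peak, IDR rank 80 with a signal of 1275.0, lay 368 bp outside the 3′ flank, 109 bp from the TSS of CG7737, and is not counted. Another 13 regions of shn outside the IDR list recurred in all 3 replicates.

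**Figure D4:**
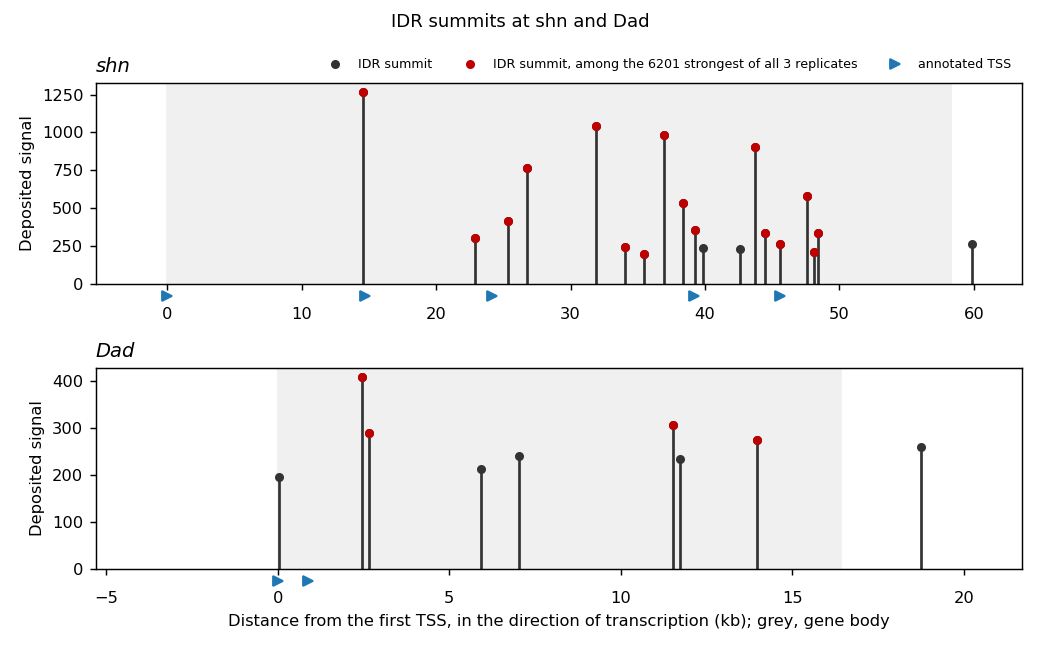
Deposited signal of the IDR summits (lines with points) at shn and Dad against the distance from the first TSS in kb; grey marks the gene body, arrowheads the annotated TSSs, and red points summits among the 6201 strongest regions of all 3 replicates. At shn, summits fill the gene from 14.5 to 48.4 kb and 16 of 19 are red; at Dad, 4 of 9 are red and the promoter summit has the lowest signal.

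Ordered by the density of their strongest regions, averaged over the replicates, the loci ran from shn with 3.17 ± 0.55 summits per 10 kb (SD, n = 3, as for all that follow), through sax with 2.45 ± 0.43, Dad with 2.27 ± 0.38 and brk with 1.26 ± 0.44, to sog with 0.66 ± 0.38 and tkv with 0.53 ± 0.19. They were followed by cv-2 with 0.29 in each replicate, Mad with 0.28 ± 0.24, put with 0.20 ± 0.35 and dpp with 0.08 ± 0.14. The ranges over replicates of neighbours in this order overlapped, except between Dad and brk and between tkv and cv-2. Loci farther apart in the order could overlap as well: sog had 0.25 in replicate 2, below the 0.29 of cv-2, and tkv had 0.32 in replicate 3, below put with 0.60. The values of shn, sax and Dad in every replicate lay above those of brk and of all loci after it. The sax value counts summits nearest to other genes, and the IDR list placed Dad above shn.

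The IDR list equals the 6201 strongest regions of the pooled call, so recurrence was read from the replicate lists. Of the 41 IDR peaks in the loci, 27 (65.9%) were overlapped by the strongest regions of all 3 replicates, against 56.1% of all IDR peaks. Another 11 (26.8%) were overlapped by those of 2 replicates, 2 (4.88%) by those of 1, and the Dad promoter peak by none. Neighbouring peaks of shn and of Dad that shared a replicate region were counted separately. Replicates 1, 2 and 3 had 82.9%, 82.9% and 90.2% of the 41 among their strongest regions, against 82.3%, 77.7% and 83.1% of all IDR peaks. The share of 65.9% rests on shn: without it, 11 of 22 peaks (50%) were met in all 3 replicates. The peaks were of middling strength, with a median IDR rank of 2975 against 3101 for all IDR peaks, and 9 of them were among the 1000 strongest, 7 of these at shn.

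**Figure D5:**
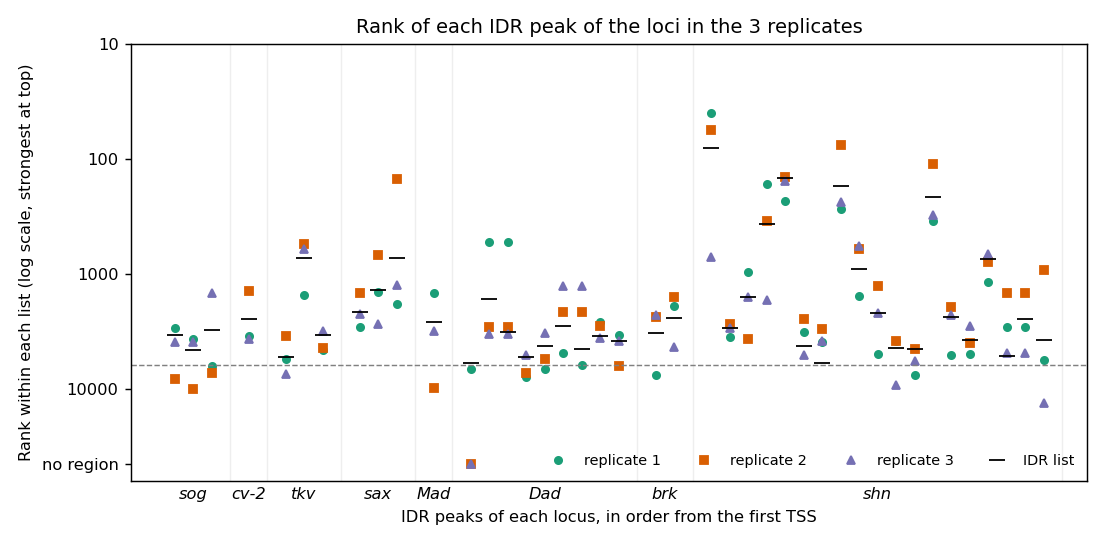
Rank of each of the 41 IDR peaks in the IDR list (dashes) and in replicates 1, 2 and 3 (symbols), by locus and in order from the first TSS, on a log axis with the strongest at the top; the dashed line is rank 6201. Most shn symbols lie above the line, those of replicate 2 fall below it at all 3 sog peaks and at Mad, and the first Dad peak has no region in replicates 2 and 3.

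By position, 26 of the 41 summits (63.4%) lay in introns, against 39.1% of all IDR summits. Another 12 (29.3%) lay within 500 bp of a TSS, against 45.0%. Shares among the summits of all gene loci were not computed. By construction the loci hold little sequence far from genes: 2.44% of their summits were intergenic, against 12.7% of all IDR summits. The differences in position are therefore not particular to these genes on this evidence. The strongest regions of the replicates in the loci gave 65.8% ± 1.41 in introns and 27.7% ± 2.22 near a TSS (SD, n = 3). The intronic share came from shn and Dad, where 21 of 28 summits (75.0%) were intronic, while in the other loci 5 of 13 (38.5%) were. The member itself held the nearest TSS for 32 of the 41 summits.

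Sequence matches within 100 bp of the 41 summits were close to those of all IDR peaks for most of the 9 sequences searched on both strands. The Iroquois sequence, a palindrome bound by Iroquois proteins, was found at 6 summits (14.6%, exact 95% interval 5.57 to 29.2), against 13.4% of all IDR windows. In windows 1000 bp to each side of the 41 summits it was found in 7 of 82 (8.54%). These windows to the side were not cleared of IDR peaks, and some at shn, Dad and brk overlap a neighbouring peak. They are therefore not unbound surroundings for any of the sequences. The Brinker sequences were found at 12 summits (29.3%, interval 16.1 to 45.5), against 22.6% of all IDR windows. They were found in 31.7% of the windows to the side, so the share at the summits was not above that of these windows. At Dad, 5 of 9 summits had a Brinker sequence. The GATA factor sequence was found at 9 summits (22.0%, interval 10.6 to 37.6), against 27.1% of all IDR windows and 9.76% (8 of 82) of the windows to the side. The GAGA sequence was found at 29.3%, against 30.6% of all IDR windows and 26.8% of the windows to the side. The Mad sequence GCCGNCGC, which can overlap the Brinker sequences, was found at 3 summits (7.32%, interval 1.54 to 19.9), against 2.82% of all IDR windows. The Zelda sequence CAGGTAG was found at 1 (2.44%, interval 0.0617 to 12.9), against 1.03%. The core promoter sequences TATCGATA (DRE) and GGTCACACT (Motif 1) were at none of the 41 summits (interval 0.0 to 8.6 for each). Their shares of all IDR windows were 2.52% and 1.42%. Each of these intervals includes the share of all IDR windows. Intervals cover counting error only, and summits of 1 locus share their surroundings.

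The silencer element is the sequence through which Mad, Medea and Shn are known to repress brk and other genes, and it was searched over the whole loci. The chromosome arms held 372 matches, or 2.78 per Mb, of which 8 (2.15%) were overlapped by an IDR peak. The 10 loci held 6, or 17.6 per Mb, of which cv-2 had 2 and sog, tkv, brk and shn had 1 each. The match in shn lay 75 bp from the summit of an intronic peak 47.6 kb into the gene, which had IDR rank 747 and ranks 1171, 795 and 669 in replicates 1, 2 and 3. It is 1 of 3 IDR summits on the chromosome arms with this element within 100 bp. The other 5 matches in the loci were not met by any region of any replicate. At brk the match lay 2170 bp upstream of the TSS and 1094 bp from the nearest IDR summit. Matches farther than 5 kb from brk were not assigned to it, and whether this match acts as a silencer was not tested.

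The IDR list stops at a signal of 190.7, and several regions of the loci lay close to that value. The weakest peaks inside were at Dad with 212.0 and 195.0 and at shn with 195.1. The strongest regions just outside were an intronic one at tkv with 190.7, one at sog with 186.6 and one at shn with 182.8. Counting all loci, 48 regions outside the IDR list recurred in all 3 replicates, or 1.41 per 10 kb, against 0.60 over the chromosome arms. The value over all gene loci was not computed for such regions. For IDR summits, all gene loci held 0.68 per 10 kb, against 0.46 over the arms. Some neighbouring regions among the 48 were matched by the same region of another replicate, and 42 were left when those were counted once. Of the 48, shn had 13, sog and cv-2 had 10 each, tkv had 7, dpp 4, Mad 2, sax and brk 1 each, and put and Dad 0. The Dad locus thus combined many IDR peaks with no further recurrent region, and cv-2 the reverse.

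A second list of 32 genes of the same pathway, chosen with earlier results of these data known, was read in the same way. An IDR summit lay in the locus of 20 (62.5%) and within 1000 bp of a TSS of 12 (37.5%), against 52.1% and 25.1% of all genes. These shares are not corrected for locus length or number of TSSs. The loci ran from 10.5 kb at srw to 103 kb at Snoo, against a median of 12.2 kb for all genes. Their median density was 0.47 summits per 10 kb, against 0.36 for all genes. All 3 intracellular inhibitors or cofactors had an IDR summit in the locus, as did the other receptor gene and the other Smad. The same held for 1 of 2 ligands, 5 of 10 extracellular modulators and 9 of 15 target genes. The strongest peak in a locus of this list was at the BMP ligand gene gbb, with IDR rank 10 and ranks 16, 22 and 9 in replicates 1, 2 and 3, but its summit lay 102 bp from the TSS of eIF6. The peak at Med, the co-Smad gene, had IDR rank 315 and lay 2 bp from the TSS of Mnat9. The best peaks of Ance, at rank 417, and tup, at rank 1173, were also nearest to other genes, 45 bp from the TSS of Smg5 and 128 bp from that of CG10602. The target gene ush, which encodes a cofactor of GATA factors, held 16 summits, the best at IDR rank 18 with replicate ranks 9, 42 and 25. That summit lay inside the ush gene body, 4841 bp from a ush TSS, but nearer to the TSS of cbt at 1373 bp. Snoo, which encodes a Ski/Sno family cofactor, held 11, the best at IDR rank 1074 and in its gene body. No IDR summit lay in the loci of cv-d, srw, tld, tok, tsg, scw, Doc1, Doc2, Doc3, lab, salr and zen.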

How the data were processed

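Per the deposited file descriptions, the authors used the dm6 genome, called regions in each replicate against 1 shared control alignment and again on all replicates together, and derived an IDR list. The aligner, caller, IDR threshold and depth are not given in the sources used here, so how depth moves the lists is unknown. The unit used is the signal column deposited by the authors, whose scale is not stated; it served only to rank regions within a list. The 6201 IDR peaks were the 6201 pooled regions of highest signal, so presence there does not show recurrence in each replicate. Each sample's free-text description names an input control, while its title, assay and antibody fields name a transcription factor ChIP, which is how they were treated here.

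Summits were placed on Ensembl release 115 genes (BDGP6.54), using 13945 protein-coding genes with 19607 TSSs on 6 chromosome arms and the release 6 sequence, which comes from RefSeq. A summit within 500 bp of a TSS was placed there; the rest went to UTRs before coding exons, then introns, then intergenic sequence. A peak was met in a replicate when it shared at least 1 bp with a region. With 1 group no test was made; spread is the SD over the 3 replicate lists, each limited to its 6201 strongest regions, and shares carry exact binomial (Clopper-Pearson) 95% intervals where given. Python 3.11.15, numpy 2.4.6, pandas 2.3.3 and scipy 1.17.1 were used, and the calculations were tested on simulated data. The members, sequences and lists were chosen with earlier results of these data known. By rule, all members were named, with the 6 other pathway genes of strongest IDR peak, those with no IDR summit, and neighbours with a TSS within 1000 bp of a locus summit; neighbours of the other pathway genes, CG1677, and genes beside peaks outside the loci were named after their values were seen. Alternatives covered the flank, TSS window, peak threshold, overlap rule, sequence window, merged summits and leaving out each replicate.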

Additional observations from a re-analysis of the deposited data

How the results depend on the processing

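Of 53 alternative values, 26 moved: counts by more than 1.5 times, the share of peaks met in all 3 replicates to beyond its exact 95% interval, and other values by more than 1 SD between replicates. With the gene body alone, 5 members rather than 8 held an IDR summit, and the density was 1.33 per 10 kb; it was 1.36 with 2 kb flanks. With the 3100 strongest IDR peaks, the loci held 22 summits (0.65 per 10 kb), and 5 members had one within 1000 bp of a TSS. The shares of all genes and the density over the arms were not computed at these settings. A shorter peak list or a narrower locus also lowers the counts of all genes by construction, so these counts show no loss particular to the members. Merging overlapping peaks gave 1.12 per 10 kb, 31.6% near a TSS, 60.5% in introns and 15.8% with the Iroquois sequence. Without the shn locus, an alternative added after the data were seen, 22 summits remained (0.81 per 10 kb, 54.5% intronic). The share of peaks met in all 3 replicates was 46.3% with 50% reciprocal overlap, 48.8% with summits within 100 bp and 97.6% with the whole relaxed lists. Leaving out a replicate gave 73.2% to 75.6% met in both others, 1.18 to 1.22 summits per 10 kb, and 60 to 68 recurrent regions outside the IDR list; a 100 bp limit gave 28. A TSS window of 250 bp gave 26.8% near a TSS, and 1000 bp gave 36.6%, with 58.5% in introns. Sequence windows of 50 and 250 bp gave 7.32% and 19.5% for the Iroquois sequence, 12.2% and 41.5% for the GATA factor sequence, and 19.5% and 58.5% for the Brinker sequences. The cause of these moves was not tested beyond what each setting changes by construction. No paired analysis was possible because there was 1 group. Depth is unknown, so an IDR count of 0 at dpp and put says only that no region there passed the list's limit.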
